A study of Homo sapiens with 8 samples.

Results

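The eIF4F complex and the cofactors of its helicase were followed as 10 genes of 58787 in a table of gene counts. The members are EIF4A1, EIF4A2, EIF4A3, EIF4E, EIF4G1, EIF4G2, EIF4G3, EIF4B, EIF4H and PDCD4. They were chosen by name, and each of the 10 symbols matched a single Ensembl row. All 10 passed the filter on low counts. Polyadenylated RNA was sequenced from IMR32, an established human neuroblastoma line with amplified MYCN, genotype WT per the labels. One group of 4 libraries came from cells given CR31B at its IC50 and the other group of 4 from cells given 0.1% DMSO as vehicle. Both were taken at 6 h, and the series design names the 4 of a group biological replicates. All libraries are of 1 cell line, and the labels give no concentration for the IC50.

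eIF4F binds the 5′ cap of messenger RNA and prepares it for the ribosome. eIF4E holds the cap, eIF4G is the scaffold, and eIF4A is a DEAD-box helicase that opens structure in the leader of the message. eIF4B and eIF4H stimulate the helicase and PDCD4 keeps it from RNA and from eIF4G. CR31B is a rocaglate, a compound class that clamps eIF4A onto RNA. The comparison therefore asks what happens to the messages of the targeted machine itself. The counts measure messenger RNA, not protein or translation. In bulk samples fewer cells with a message and less of it per cell cannot be told apart.

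Per the labels, replicate 1 was sequenced paired-end in both groups and replicates 2 to 4 (6 libraries) single-end, and replicate 1 ran against the other replicates. On the first principal component, which held 51.8% of the variance, the single-end CR31B libraries scored 19.0 to 28.95 and the single-end DMSO libraries -29.4 to -25.8. The library labelled CR31B replicate 1 scored -26.4 and the library labelled DMSO replicate 1 scored 32.0, so each stood with the opposite group. Labels were kept as given, and results are printed with all 8 libraries and with the 6 single-end ones. Whether labels were exchanged, in replicate 1 or in replicates 2 to 4, was not tested, and replicate 1 and the paired-end layout cannot be told apart. The words rose and fell follow the labels of replicates 2 to 4, and every single-end direction would turn round if those were the exchanged ones. Total counts were 43687828 to 64715535 per library. Of 13 neuroblastoma markers, 12 were above 5 CPM (a count per library total, corrected by TMM, the trimmed mean of M-values) in every library, TH being the low one. Their summed level was 6657 to 7331 CPM in the single-end CR31B libraries and 5424 to 5739 CPM in the single-end DMSO libraries. The 13 markers did not move as 1. In the single-end libraries 5 were called higher and 4 lower, against 23.8% and 17.6% of all genes tested. The fold changes ran from 3.43-fold for GATA3 and 1.96-fold for HAND2 down to 0.506-fold for DBH and 0.57-fold for STMN2. Of 13 markers of other cell types, 11 were under 1 CPM in every library, 4 of them at 0, and COL1A1 was above 5 CPM. Their sum was 24.8 to 35.4 CPM with CR31B and 31.3 to 37.4 CPM with DMSO in the single-end libraries. The part of these shifts in the results was not tested.

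With all 8 libraries as labelled, 0 of 10 members passed the adjusted p threshold of 0.05 (edgeR quasi-likelihood test with layout as a covariate, Benjamini-Hochberg over all genes), against 0.0% of 16518 genes tested. At an unadjusted p under 0.05 there were 0 members, against 1.24% of genes, and DESeq2 and limma voom also called 0 members. In the 6 single-end libraries 5 of 10 members passed, against 41.3% of 16696 genes. PDCD4, EIF4G1, EIF4G3 and EIF4A2 rose, against 23.8% of genes higher, and EIF4H fell, against 17.6% lower. The members' share is near that of all genes. The median log2 fold change of the 10 members was 0.10, and that of all tested genes was -0.01. With the replicate number as a block EIF4B also passed, lower, making 6 of 10 members against 51.1% of genes, with 4 higher against 28.1% and 2 lower against 23.1%.

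**Figure D1:**
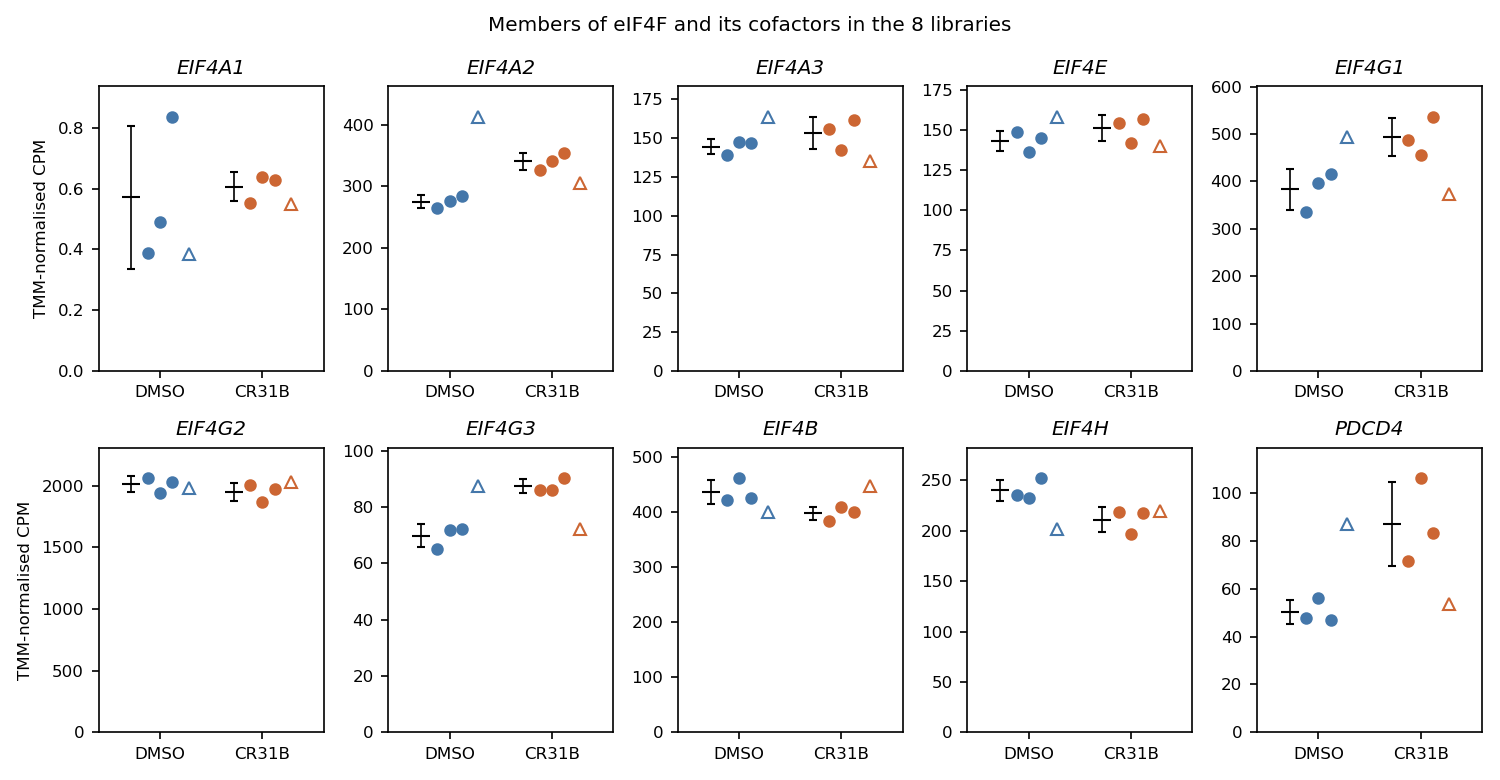
TMM-normalised CPM of each member in each library, DMSO in blue and CR31B in orange, with the single-end libraries as filled circles, replicate 1 as open triangles, and the mean and SD of the 3 single-end libraries as a black bar. In the panels of EIF4A2, EIF4G1, EIF4G3 and PDCD4 the open triangles stand in the opposite order to the circles.

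The promoter letters of the members were read for 2 short motifs, since members that differ in direction can be compared in them. CACGTG is the E-box read by MYC and MAX family proteins, and TATAAA is the core of the TATA box. Promoter windows of RefSeq (GRCh38.p14, 250 bases before to 50 after a start) were found for 10 of 10 members, with 14 windows in all. CACGTG, which reads alike on both strands, stood in 5 of the 14 windows, 1 window in each of 5 members, against 7.26% of all 35116 windows and 8.34% of the 22199 windows of protein-coding genes. TATAAA, searched on both strands, stood in 1 of the 14 windows, that of EIF4A2, against 11.5% of all windows. The 2 motifs share no base in these windows. Each stretch below runs 5′ to 3′ on the strand of the gene, with the motif in capitals. The position is that of the first motif base relative to the RefSeq start of its window. That start can differ from the start of the gene span printed with each member further on. The EIF4E, EIF4A2 and EIF4B motifs and the EIF4G1 motif at -67 lie inside those spans. The EIF4H and EIF4A3 motifs and the EIF4G1 motif at -144 lie before them.

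EIF4G1, chr3:184314442-184314564, plus strand, motif at -144 and -67: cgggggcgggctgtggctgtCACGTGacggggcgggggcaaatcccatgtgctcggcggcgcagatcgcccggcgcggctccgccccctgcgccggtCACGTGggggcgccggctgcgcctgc
EIF4H, chr7:74174137-74174182, plus strand, motif at -199: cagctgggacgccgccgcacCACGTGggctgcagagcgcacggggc
EIF4B, chr12:53006414-53006455, plus strand, motif at -22: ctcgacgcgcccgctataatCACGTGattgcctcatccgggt
EIF4A3, chr17:80147224-80147269, minus strand, motif at -121: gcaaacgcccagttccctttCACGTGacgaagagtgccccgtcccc
EIF4E, chr4:98929333-98929378, minus strand, motif at -225: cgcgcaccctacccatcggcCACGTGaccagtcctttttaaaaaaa
EIF4E, chr4:98929180-98929225, minus strand, motif at -72: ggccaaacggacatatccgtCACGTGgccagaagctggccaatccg
EIF4A2, chr3:186783527-186783572, plus strand, motif at -30: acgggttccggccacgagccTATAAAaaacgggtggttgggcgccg

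The members with the E-box did not share a direction in the single-end libraries. EIF4G1 was called higher, EIF4H was called lower, and EIF4A3, EIF4E and EIF4B did not pass. PDCD4, EIF4G3 and EIF4A2, the other members called higher, had no CACGTG in their windows. A match is a run of letters and no binding was measured.

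The helicases came first in the order of roles. EIF4A2 (ENSG00000156976, GRCh38 chromosome 3, 186783205 to 186789900, plus strand) encodes the eIF4A paralog that is prominent in neural tissue. Its level was 327, 341 and 355 CPM in CR31B replicates 2, 3 and 4 and 264, 277 and 284 CPM in DMSO replicates 2, 3 and 4. The single-end groups did not overlap, and the 3 differences on the log2 scale were 0.31, 0.30 and 0.32, a narrow range. In replicate 1 the library labelled CR31B held 306 CPM and the library labelled DMSO 414 CPM, the highest of all 8. The single-end log2 fold change was 0.31 ± 0.053 (SE), or 1.24-fold, with adjusted p = 0.000958 (edgeR after Benjamini-Hochberg). With 8 libraries the EIF4A2 value was 0.13 ± 0.13 with adjusted p = 0.72 (edgeR after Benjamini-Hochberg). Offsets for GC content and transcript length lowered the single-end value to 0.13 with adjusted p = 0.102, and to 0.13 with adjusted p = 0.0137 when the replicate block was added (edgeR after Benjamini-Hochberg).

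EIF4A3 (ENSG00000141543, chromosome 17, 80135214 to 80147183, minus strand) encodes the helicase that anchors the exon junction complex on spliced messages and is not part of eIF4F. It had 156, 142 and 162 CPM in CR31B replicates 2 to 4 and 139, 148 and 147 CPM in DMSO replicates 2 to 4. The groups overlapped, since CR31B replicate 3 lay between the DMSO libraries. Replicate 1 had 136 CPM with the CR31B label and 164 CPM with the DMSO label. The single-end log2 fold change of EIF4A3 was 0.09 ± 0.058 (SE) with adjusted p = 0.272 (edgeR after Benjamini-Hochberg), within the spread between replicates, and it was -0.01 under upper quartile scaling.

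EIF4A1 (ENSG00000161960, chromosome 17, 7572706 to 7579005, plus strand), which encodes the main eIF4A of dividing cells, was close to unreadable in these counts. It had 31, 29, 37 and 28 counts in CR31B replicates 1 to 4 and 16, 24, 33 and 43 counts in DMSO replicates 1 to 4. The lowest and highest of these 8 counts were both DMSO libraries, so the groups overlapped in full. The exact Poisson 95% interval was 9.15 to 26.0 for the 16 counts and 31.1 to 57.9 for the 43 counts, counting error only. Its single-end level was 0.606 ± 0.047 CPM in the CR31B group and 0.571 ± 0.24 CPM in the DMSO group (SD, n = 3 each). The log2 fold change was 0.11 ± 0.29 (SE) with adjusted p = 0.786 in the single-end libraries and 0.19 ± 0.27 with adjusted p = 0.772 in all 8 (edgeR after Benjamini-Hochberg), so no difference was detectable at this depth.

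Several features of the annotation stand beside the low EIF4A1 counts. In GENCODE 29, 2583 of its 5316 merged exon bases (48.6%) and 1336 of its 1539 coding bases (86.8%) are also exonic in another gene of the same strand. These figures take in every gene of the strand. The blocks of SENP3-EIF4A1 account for only part of the shared exon bases, and the other genes are not named or counted here. SENP3-EIF4A1, a readthrough of a SUMO protease gene into EIF4A1, held 0 to 3 counts per library and shares 88.0% of its exon bases. SENP3 itself, upstream, held 592 to 803 counts and had a single-end log2 fold change of 0.34 with adjusted p = 0.0144 (edgeR after Benjamini-Hochberg), a call that was lost without CR31B replicate 4 (adjusted p = 0.0575), DMSO replicate 2 (0.0561) or DMSO replicate 3 (0.0692). CD68, a macrophage marker downstream, had 0 counts in all 8 libraries. It shares 81.7% of its exon bases with genes of its strand that are not named here, since neither EIF4A1 nor SENP3-EIF4A1 reaches CD68. MPDU1, a glycosylation gene further downstream with none of its exon bases shared on its strand, was at 63.1 ± 3.7 CPM in CR31B and 82.5 ± 3.9 CPM in DMSO libraries (SD, n = 3 each), and fell by 0.38 on the log2 scale with adjusted p = 0.000529 (edgeR after Benjamini-Hochberg).

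**Figure D2:**
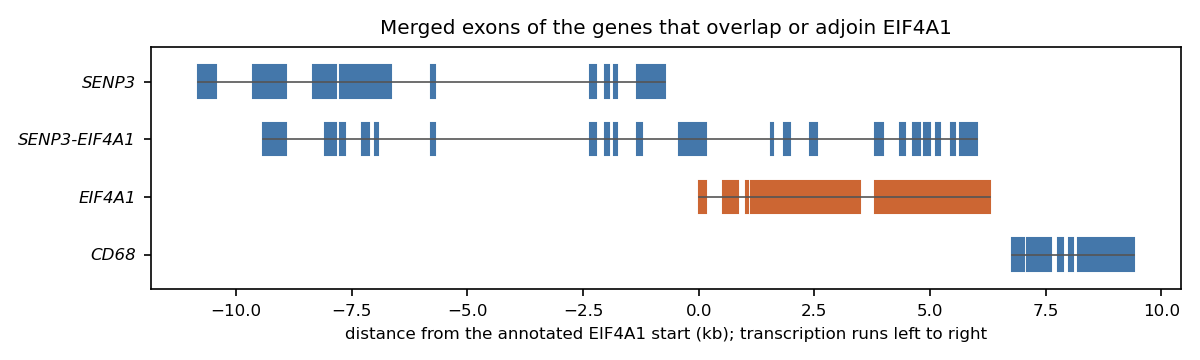
Merged exons (blocks) of EIF4A1 in orange and of SENP3-EIF4A1, SENP3 and CD68 in blue, by distance in kb from the annotated EIF4A1 start. Blocks of SENP3-EIF4A1 run through those of EIF4A1. Of the coding bases of EIF4A1, 86.8% are exonic in another gene of the same strand. Genes that are not drawn also share exon bases of EIF4A1.

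The 13 annotated EIF4A1 pseudogene rows held more counts than the gene. Their sum was 244 to 413 counts per library, which is 870% to 1620% of the EIF4A1 count, and 9 of the 13 rows had a count. EIF4A1P10 alone had 175 to 311 counts, with a single-end log2 fold change of -0.18 and adjusted p = 0.279 (edgeR after Benjamini-Hochberg). For EIF4A2 the pseudogene rows came to 0.091% to 0.204% of the gene's count, for EIF4E to 2.19% to 3.17%, for EIF4B to 1.04% to 1.56% and for EIF4H to 1.4% to 1.89%. How shared and repeated reads were counted is not given in the sources used here, so the EIF4A1 level is uncertain, and the part of shared exons in it was not tested. Per kb of merged exons, EIF4A2 made up 60.6% ± 0.37 (SD, n = 3) of the summed level of the 3 helicase rows in single-end DMSO libraries and 64.2% ± 1.5 (SD, n = 3) in single-end CR31B libraries. In replicate 1 the EIF4A2 share was 64.6% with the CR31B label and 67.1% with the DMSO label. These shares leave out any EIF4A1 reads that were not counted to its row.

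The cap-binding subunit EIF4E (ENSG00000151247, chromosome 4, 98871684 to 98930637, minus strand) had 154, 142 and 157 CPM in CR31B replicates 2 to 4 and 149, 136 and 145 CPM in DMSO replicates 2 to 4. Each pair differed in the same direction, but the groups overlapped. Replicate 1 had 140 CPM with the CR31B label and 158 CPM with the DMSO label. The single-end log2 fold change of EIF4E was 0.08 ± 0.057 (SE) with adjusted p = 0.294 (edgeR after Benjamini-Hochberg). Its direction depended on the setting: it was -0.02 under upper quartile scaling and -0.19 with adjusted p = 0.0358 with GC and length offsets (edgeR after Benjamini-Hochberg).

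Among the scaffolds, EIF4G1 (ENSG00000114867, chromosome 3, 184314495 to 184335358, plus strand), the main eIF4G, had 489, 456 and 537 CPM in CR31B replicates 2 to 4 and 335, 398 and 417 CPM in DMSO replicates 2 to 4. Every CR31B library stood above every DMSO library of the single-end set. In replicate 1 the order turned, with 373 CPM under the CR31B label and 493.4 CPM under the DMSO label. The single-end means were 494 ± 40.9 CPM and 383 ± 42.8 CPM (SD, n = 3 each). EIF4G1 thus rose by 0.37 ± 0.086 (SE) on the log2 scale, or 1.29-fold, with adjusted p = 0.00628 (edgeR after Benjamini-Hochberg). With 8 libraries its value was 0.17 ± 0.15 with adjusted p = 0.707 (edgeR after Benjamini-Hochberg).

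EIF4G3 (ENSG00000075151, chromosome 1, 20806292 to 21176888, minus strand), a second scaffold that also binds eIF4E, had 86.1, 86.1 and 90.4 CPM in CR31B replicates 2 to 4 and 65.2, 72.0 and 72.4 CPM in DMSO replicates 2 to 4. The single-end groups were apart by more than the range within either of them. Replicate 1 had 72.1 CPM with the CR31B label and 87.6 CPM with the DMSO label, each within the range of the opposite group. Its single-end log2 fold change was 0.33 ± 0.056 (SE), or 1.25-fold, with adjusted p = 0.00101, and 0.17 ± 0.11 with adjusted p = 0.707 in 8 libraries (edgeR after Benjamini-Hochberg). GC and length offsets lowered the single-end value to 0.18 with adjusted p = 0.0339 (edgeR after Benjamini-Hochberg).

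EIF4G2 (ENSG00000110321, chromosome 11, 10797050 to 10809110, minus strand), also known as DAP5, encodes a scaffold that lacks the eIF4E-binding part and serves cap-independent initiation. It was the most abundant member, at 2005, 1870 and 1973 CPM in CR31B replicates 2 to 4 and 2062, 1938 and 2032 CPM in DMSO replicates 2 to 4. The difference was between -0.05 and -0.04 on the log2 scale in these 3 pairs and 0.03 in replicate 1, where the libraries held 2029 CPM (CR31B label) and 1984 CPM (DMSO label). The single-end log2 fold change was -0.04 ± 0.056 (SE) with adjusted p = 0.572 (edgeR after Benjamini-Hochberg). EIF4G2 passed, lower, under upper quartile scaling (-0.14, adjusted p = 0.028), total count scaling (-0.12, adjusted p = 0.0433) and GC and length offsets (-0.26, adjusted p = 0.0131), all by edgeR. Within the family, per kb of merged exons, EIF4G1 took 20.3% ± 1.0 of the summed eIF4G level in single-end CR31B libraries and 16.2% ± 1.8 in single-end DMSO libraries, and EIF4G2 took 76.6% ± 1.1 and 81.2% ± 1.9 (SD, n = 3 each).

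Of the stimulators of the helicase, EIF4H fell and EIF4B did not pass the test. EIF4H (ENSG00000106682, chromosome 7, 74174245 to 74197101, plus strand) had 219, 197 and 218 CPM in CR31B replicates 2 to 4 and 236, 233 and 252 CPM in DMSO replicates 2 to 4. The single-end groups did not overlap, while replicate 1 had 219 CPM with the CR31B label and 202 CPM with the DMSO label. EIF4H fell by 0.19 on the log2 scale (SE 0.059), to 0.879 of the DMSO level, with adjusted p = 0.0274 (edgeR after Benjamini-Hochberg). In 8 libraries the value was -0.11 ± 0.085 with adjusted p = 0.707 (edgeR after Benjamini-Hochberg). The EIF4H call was lost without CR31B replicate 3 (adjusted p = 0.0676), without DMSO replicate 4 (0.123), without both libraries of replicate 4 (0.161) and with GC and length offsets (0.0911).

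EIF4B (ENSG00000063046, chromosome 12, 53006158 to 53042209, plus strand) had 384, 408 and 400 CPM in CR31B replicates 2 to 4 and 422, 462 and 426 CPM in DMSO replicates 2 to 4. These groups did not overlap, and replicate 1 again ran the other way, with 448 CPM under the CR31B label and 400 CPM under the DMSO label. Its single-end log2 fold change was -0.13 ± 0.054 (SE) with adjusted p = 0.0741, and the same value had adjusted p = 0.0123 with the replicate block (edgeR after Benjamini-Hochberg). Of 19 alternatives, 8 called EIF4B lower and 11 did not.

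PDCD4 (ENSG00000150593, chromosome 10, 110871795 to 110900006, plus strand), the inhibitor of eIF4A that is destroyed after phosphorylation by S6 kinase, showed the widest difference of the 10 genes. It had 71.5, 106 and 83.0 CPM in CR31B replicates 2 to 4 and 47.6, 55.9 and 47.1 CPM in DMSO replicates 2 to 4. The lowest CR31B library was above the highest DMSO library of the single-end set. Replicate 1 had 53.4 CPM with the CR31B label and 86.8 CPM with the DMSO label, a log2 difference of -0.70 against 0.59, 0.92 and 0.82 in the other pairs. PDCD4 rose by 0.79 ± 0.13 (SE) on the log2 scale, or 1.73-fold, with adjusted p = 0.000613 in the single-end libraries (edgeR after Benjamini-Hochberg). With 8 libraries the value was 0.43 ± 0.26 with adjusted p = 0.707 (edgeR after Benjamini-Hochberg). Of its exon bases 29.5% overlap genes on either strand and 1.45% genes on its own strand. The name of the deposited table holds the word reverse, which may refer to strand, but no source used here states how strand was used. If counting ignored strand, that overlap could have raised or lowered the PDCD4 counts, depending on how shared reads were handled. That handling is not given in the sources used here.

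**Figure D3:**
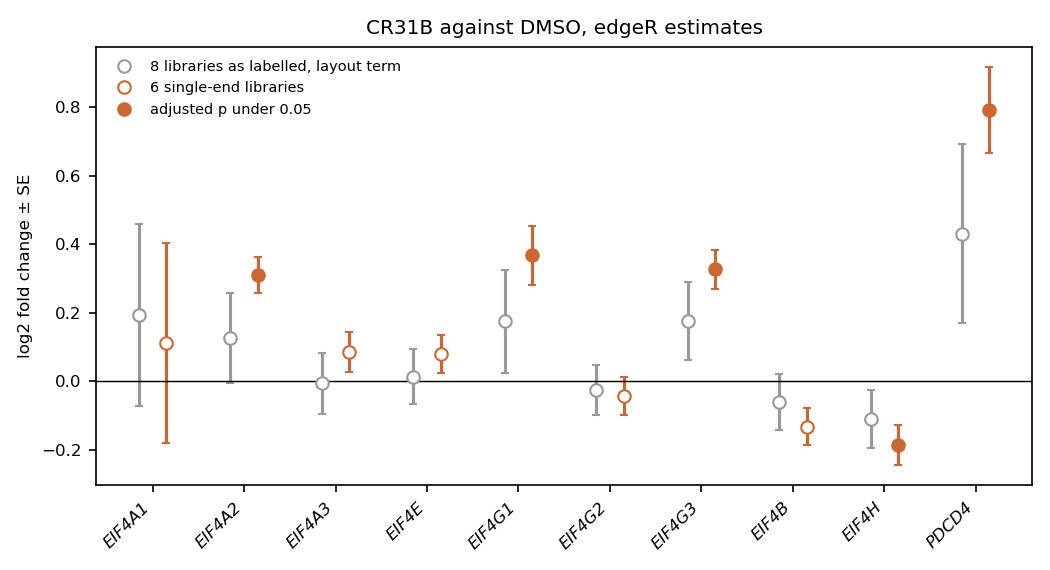
The edgeR log2 fold change of CR31B against DMSO with its SE for each member, in grey for the 8 libraries as labelled and in orange for the 6 single-end libraries, filled where the adjusted p is under 0.05. The 5 filled points are PDCD4, EIF4G1, EIF4G3 and EIF4A2 above 0 and EIF4H below it, all in the single-end set.

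Compared pair by pair, 8 of 10 members had 1 direction in pairs 2, 3 and 4, against 69.8% of genes, the exceptions being EIF4A1 and EIF4A3. In replicate 1, 9 of 10 members, all but EIF4A1, had the opposite sign to the mean of the other pairs, against 84.1% of genes. Single-end groups that did not overlap were found for 6 of 10 members, against 52.1% of genes. With all 8 libraries this held for 0 of 10 members, against 0.66% of genes. The difference between replicate 1 and the single-end libraries was tested as an interaction of treatment with layout, with the spread taken from the single-end libraries, since there was 1 paired-end library per group and so none within that layout. The split of replicate 1 was known when this test was chosen, so it describes that split and is no independent support for it. It passed for 6 of 10 members, against 42.5% of genes. The value was below 0 for EIF4A2, EIF4A3, EIF4G1, EIF4G3 and PDCD4, against 24.1% of genes, and above 0 for EIF4B, against 18.4%. The calls of EIF4A3 and EIF4B in this test were lost when some of the single-end libraries were left out, CR31B replicate 4 among them for both. The widest was -1.49 for PDCD4 with adjusted p = 0.000958, followed by -0.77 for EIF4G1 with adjusted p = 0.00487 (edgeR after Benjamini-Hochberg). The interaction of EIF4H was 0.31 with adjusted p = 0.0581 and that of EIF4E -0.26 with adjusted p = 0.0927 (edgeR after Benjamini-Hochberg).

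**Figure D4:**
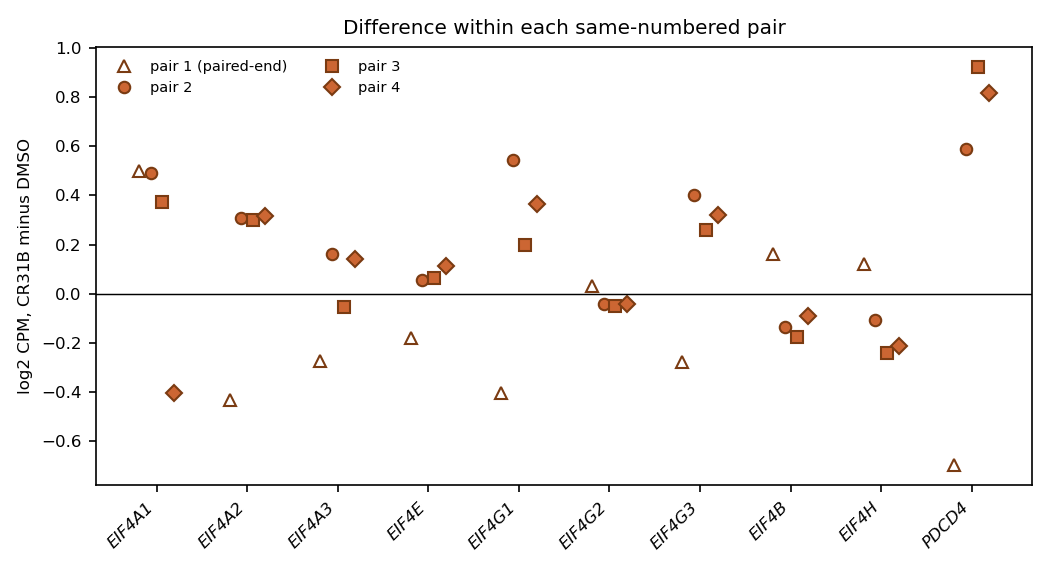
Difference in log2 CPM between the libraries labelled CR31B and DMSO of the same number, for each member, with replicate 1 as open triangles and replicates 2 to 4 as filled symbols. The open triangles lie on the other side of 0 from most filled symbols for every member but EIF4A1, where pair 4 is the lone negative at -0.41.

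Levels differed widely between the members. Per kb of merged exons, single-end DMSO libraries held 232 ± 7.5 CPM of EIF4G2 (SD, n = 3), well above EIF4H at 75.3 ± 3.3 and EIF4B at 71.0 ± 3.6, whose ranges overlapped. EIF4G1 followed at 46.4 ± 5.2 and EIF4A2 at 44.9 ± 1.7 CPM per kb, also with overlapping ranges, and then EIF4A3 at 29.1 ± 0.97. PDCD4 at 11.0 ± 1.1 and EIF4E at 10.2 ± 0.46 CPM per kb overlapped, EIF4G3 was at 7.28 ± 0.42, and EIF4A1 was last at 0.108 ± 0.044. Per kb, the cap-binding subunit was among the low members, below each scaffold but EIF4G3. EIF4E has 14067 merged exon bases, the most of the 10 members, so its rank depends on the division by length. Without that division its single-end DMSO level was 143 ± 6.4 CPM, beside 145 ± 4.8 CPM for EIF4A3 and 50.2 ± 4.9 CPM for PDCD4 (SD, n = 3 each). Taken per kb of the longest transcript, EIF4B stood above EIF4H, and PDCD4 and EIF4E were the only neighbours that overlapped.

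Across the 8 libraries, the other members were compared with EIF4A2 by Pearson's r of log2 CPM, as a description over points that share libraries and the split of replicate 1. EIF4G3 had 0.882, PDCD4 0.825, EIF4G1 0.811, EIF4A3 0.708 and EIF4E 0.651. EIF4A1 had -0.131, EIF4G2 -0.364, EIF4B -0.628 and EIF4H -0.794. Of 10797 genes with a mean of at least 5 CPM, the 5 with the highest r to EIF4A2 over these 8 libraries were RAP1GDS1 (0.985), SACM1L (0.985), EPRS1 (0.980), ZFP14 (0.978) and LARS2 (0.978).

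The partners of the complex were read as lists, each with 0 genes called in 8 libraries, and the counts that follow are from the 6 single-end libraries, where 23.8% of all genes were called higher and 17.6% lower. Of 12 eIF4E relatives and eIF4E-binding proteins 10 were tested, 4 rose and 4 fell, with a median log2 fold change of -0.14. EIF4ENIF1, the transporter that carries eIF4E into the nucleus and to processing bodies, was at 87.0 ± 1.6 CPM with CR31B and 60.2 ± 0.97 CPM with DMSO (SD, n = 3 each). It rose by 0.53 with adjusted p = 1.26e-05 (edgeR after Benjamini-Hochberg). EIF4EBP2, a repressor that takes eIF4E away from eIF4G, was at 319 ± 20.6 CPM with CR31B and 452 ± 19.3 CPM with DMSO (SD, n = 3 each). It fell by 0.50 with adjusted p = 9.74e-05 (edgeR after Benjamini-Hochberg). EIF4E2, a cap-binding relative that represses translation, fell by 0.35 and GIGYF2, its partner, rose by 0.33, with adjusted p = 0.000197 and 0.00196 (edgeR after Benjamini-Hochberg). In replicate 1 each of these 4 genes had the opposite sign. GC and length offsets took GIGYF2 to 0.15 with adjusted p = 0.0678 (edgeR after Benjamini-Hochberg).

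Of 10 poly(A)-binding proteins and partners 3 rose and 1 fell, with a median of 0.01. LARP4 and LARP4B, which bind poly(A) tails and poly(A)-binding protein, rose by 0.68 and 0.53 on the log2 scale, with adjusted p = 4.36e-06 and 0.000183 (edgeR after Benjamini-Hochberg). PABPC1, the main cytoplasmic poly(A)-binding protein and a partner of eIF4G, fell by 0.22 with adjusted p = 0.0104 (edgeR after Benjamini-Hochberg), a call lost without both libraries of replicate 2 (adjusted p = 0.0918) or of replicate 4 (0.0734). Of 12 kinases and ligases that act on eIF4F or PDCD4, 3 rose and 3 fell, with a median of -0.02. RPTOR, the mTORC1 subunit that presents 4E-BPs and S6 kinase, rose by 0.59 (adjusted p = 1.59e-05), and RPS6KA3, a ribosomal S6 kinase that can phosphorylate eIF4B, rose by 0.53 (adjusted p = 7.04e-05), by edgeR. MKNK2, which phosphorylates eIF4E on the eIF4G scaffold, fell by 0.46 (adjusted p = 0.000127), and RPS6KB2 fell by 0.38 (adjusted p = 0.000439), by edgeR. The RPS6KA3 value was 0.29 in the lowest of its 19 alternatives and stayed past the threshold in all of them.

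**Figure D5:**
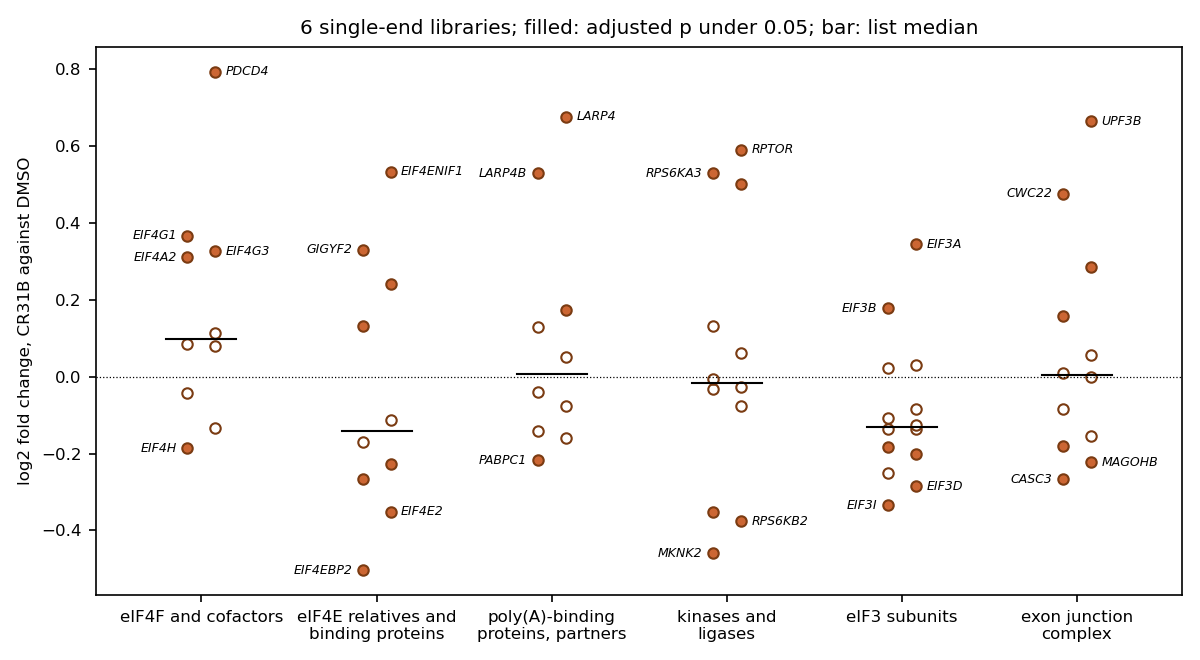
Log2 fold change of CR31B against DMSO in the 6 single-end libraries for each tested gene of the members and of 5 partner lists, filled where the adjusted p is under 0.05, with the list median as a black bar. Calls in both directions are seen in every list, and the medians lie between -0.14 and 0.10.

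Of 14 eIF3 subunits, which join eIF4G to the small ribosomal subunit, 2 rose and 4 fell, with a median of -0.13. With the replicate block 2 rose and 7 fell, where 28.1% of all genes were called higher and 23.1% lower. EIF3E, EIF3H and EIF3J were added, all lower, with adjusted p = 0.0152, 0.0305 and 0.014 (edgeR after Benjamini-Hochberg). EIF3A rose by 0.34 (adjusted p = 0.0015), EIF3I fell by 0.33 (adjusted p = 0.000294) and EIF3D fell by 0.28 (adjusted p = 0.00335), by edgeR. EIF3A was at 0.15 with adjusted p = 0.0749 with GC and length offsets, and EIF3B, at 0.18 with adjusted p = 0.0434, lost its call in 11 of 19 alternatives (edgeR after Benjamini-Hochberg), among them those without CR31B replicate 2 (adjusted p = 0.107), CR31B replicate 4 (0.155), DMSO replicate 2 (0.125) or DMSO replicate 3 (0.133). Of 12 exon junction complex partners of EIF4A3, 4 rose and 3 fell, with a median of 0.005. UPF3B, which links the complex to nonsense-mediated decay, rose by 0.66 (adjusted p = 6.75e-06), and CWC22, the splicing factor that brings EIF4A3 to the spliceosome, rose by 0.48 (adjusted p = 5.79e-05), by edgeR. CASC3, a subunit of the complex, fell by 0.27 (adjusted p = 0.00106) and MAGOHB, another, by 0.22 (adjusted p = 0.00707), by edgeR. In replicate 1 every gene named from the poly(A), kinase and ligase, eIF3 and exon junction lists had the opposite sign. The log2 difference there ran from -0.79 for UPF3B to 0.45 for MKNK2, and was 0.03 for MAGOHB. Of all genes, 84.1% had a replicate 1 sign opposite to the mean of the other pairs. Of 9 snoRNAs hosted in introns of members, 8 matched 1 row each, all with 0 counts in the 8 libraries, and SNORA63 matched 7 rows and was not used.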

How the data were processed

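RNA was measured in 8 IMR32 libraries. The authors deposited 1 table of raw counts per Ensembl gene, not normalised. Input was 250 ng, with 15 PCR cycles and 75 read cycles per the labels' protocols, which name a small RNA kit beside polyadenylated RNA. The tools named are FastQC 0.11.7, STAR 2.7.2b, edgeR 3.36.0 and limma 3.50.3, with build GRCh38, per the submitters' processing notes. The role of each and the counting tool are not given in the sources used here. The name of the deposited table holds the word reverse, with no statement of a strand setting. Columns were matched to libraries by name. The header of CR31B replicate 4 lacks its first letter and was matched by the rest. Of 58787 rows, 58515 were in GENCODE 29.

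Counts were filtered (filterByExpr), scaled by TMM and tested two-sided by the quasi-likelihood test of edgeR 4.0.16 (R 4.3.3), with Benjamini-Hochberg adjustment over all tested genes and a threshold of 0.05. The 8-library fit had layout as a covariate. Log2 CPM used a prior count of 1. Alternatives were RLE, upper quartile and total count scaling, 2 filters, DESeq2 1.42.0, limma voom 3.58.1, dropping layout, adding the replicate number as a block, offsets by loess for GC and length (available for 99.9% of tested genes), and leaving out each library or pair. Scripts were tested on simulated counts. Libraries differed by more than sampling noise. Deviations from group means correlated at 0.21, 0.39 and 0.16 within single-end replicates 2, 3 and 4. The block fits treated those numbers as pairs, and the main single-end fit had no block. Over 8 libraries the correlations were -0.53, -0.08, 0.16 and -0.11 for replicates 1, 2, 3 and 4. Where cultures are not shown to be separate, p-values measure the spread between these libraries only. Named genes were all members, the genes at EIF4A1, up to 2 genes per direction and partner list with the largest called single-end change at a mean of 5 CPM or more, and the 5 genes most like EIF4A2. Members and lists were chosen with earlier results of these data known.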

Additional observations from a re-analysis of the deposited data

Results flagged for a closer look

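Of 20 tests of a single library far from the other 3 of its labelled group (10 members, each group), 2 passed Dixon's 95% critical value of 0.829, where chance flags about 1 in 20 groups, or 1 of these. For EIF4A2 the DMSO library of replicate 1 was the distant one, with a gap of 0.864 of the group's range, and its 414 CPM was above the 264 to 284 CPM of the other DMSO libraries. For EIF4H the CR31B library of replicate 3 was distant, with a gap of 0.925 of the range, at 197 CPM against 218 to 219 CPM in the other CR31B libraries.

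The CR31B difference of 6 members passed the interaction test between replicate 1 and the single-end libraries, whose spread comes from the single-end libraries alone and which was chosen with the split of replicate 1 known. On the log2 scale, replicate 1 minus the single-end difference was -0.74 for EIF4A2, -0.36 for EIF4A3, -0.77 for EIF4G1, -0.61 for EIF4G3, 0.30 for EIF4B and -1.49 for PDCD4. EIF4A3 had an adjusted p of 0.0306 and EIF4B one of 0.0496 (edgeR, Benjamini-Hochberg). When each single-end library was left out in turn, 4 to 7 members passed. The full fit called 42.5% of all genes, and the share of genes in the reduced fits is not given here. EIF4A3 was lost without CR31B replicate 4 or DMSO replicate 2, and EIF4B without CR31B replicate 2, CR31B replicate 4, DMSO replicate 3 or DMSO replicate 4.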

How the results depend on the processing

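With all 8 libraries, 0 genes and 0 members were called under every scaling, filter, tool and model run, the replicate block included (111 genes at an unadjusted p under 0.05). Only leaving out replicate 1 changed this: the single-end libraries alone, which is also the fit without both libraries of replicate 1, gave 6901 genes and 5 members. Leaving out 1 library in turn gave 0 to 6920 genes and 0 to 5 members. Calls were made without CR31B replicate 1 (6920) or DMSO replicate 1 (6906). In these 2 fits the layout term takes up the replicate 1 library that is left, which then has no weight in the difference. They nearly repeat the single-end fit and are no separate result for leaving out 1 library. In the single-end libraries the counts were 5582 to 6727 genes and 4 to 5 members when 1 library was left out, and 3981 genes without both libraries of replicate 4. Paired by a replicate block, 8540 genes and 6 members were called there, EIF4B being added. The block with GC and length offsets called 8 members, 4 higher and 4 lower, against 8438 of 16696 genes, 3952 higher and 4486 lower. Without those offsets the block changed no member's call but that of EIF4B. Among the partner lists the block without offsets moved the counts to 4 higher and 5 lower for the eIF4E list. They became 4 and 1 for poly(A)-binding proteins, 2 and 7 for eIF3 and 4 and 4 for the exon junction complex. The kinases and ligases stayed at 3 and 3. With that block 28.1% of all genes were called higher and 23.1% lower. EIF4G1, EIF4G3 and PDCD4 were called higher in each of the 19 single-end alternatives. Of the genes called there, 57.5% were higher under TMM, 43.1% under total counts, 40.0% under upper quartile scaling, 49.0% after GC and length offsets and 46.8% with the block as well. Upper quartile scaling moved the median of all genes to -0.10.

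Small differences changed sign. Single-end EIF4A1 was -0.1018 to 0.4714 when 1 library or pair was left out, with values below 0 without DMSO replicate 2 and without both libraries of replicate 2 (-0.0359) or of replicate 3 (-0.0371). Single-end EIF4A3 was -0.0115 under upper quartile scaling. In 8 libraries EIF4A3 was 0.0857 with the single-end libraries only, and -0.0613 to 0.0867 when 1 library or pair was left out. Single-end EIF4E was -0.1852 with GC and length offsets, -0.1861 with the block as well and -0.0171 with upper quartile scaling. In 8 libraries EIF4E was -0.1163 with those offsets, -0.1170 with the block as well, -0.0209 with total counts, -0.0278 with upper quartile scaling and -0.0236 to 0.0803 when 1 library or pair was left out. The cause was not tested. Depth limits EIF4A1, at 16 to 43 counts. The filter of at least 1 CPM in 3 libraries removed it, so it has no value there.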
